A study of Mus musculus with 2 samples.

Results

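The 8 genes described here belong to the mouse class II pathway of the major histocompatibility complex (MHC) or encode its transcriptional coactivator. They are H2-Aa, H2-Ab1 and H2-Eb1, which encode chains of the surface molecule, Cd74, H2-DMa, H2-DMb1 and H2-DMb2, which serve its loading with peptide, and Ciita. They were taken by symbol from the 55450 features of the count tables, and all 8 were found. The tables came from F4/80+ cells that were sorted by flow cytometry from peritoneal lavage of Ankrd22-/- and of Ankrd22+/+ mice and captured with the 10x Genomics 3' v3 kit. The knockout mice were made with CRISPR/Cas9 by a contractor. Each genotype had 1 library, and the labels give neither the number of mice per library nor their age, sex or strain. F4/80 is a surface antigen of macrophages, so the sort favoured them over other antigen-presenting cells. Nothing could therefore be checked over replicates, no test was made, and every interval covers counting error alone (95%, exact). Genotype and library cannot be told apart.

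MHC class II molecules are pairs of an alpha and a beta chain that show peptides from the endocytic pathway to CD4+ T cells. In the endoplasmic reticulum the pair is held by the invariant chain, and in late endosomes the DM heterodimer swaps the remnant of that chain for a peptide. Transcription of all these genes depends on Ciita, a protein that does not bind DNA itself and is recruited by the RFX, CREB and NF-Y factors sitting on the X and Y boxes of their promoters. In the mouse peritoneum the resident large macrophages, which need the transcription factor Gata6, are known for little class II, and the small, Ccr2-dependent macrophages derived from monocytes for much of it. Macrophages with the folate receptor Folr2 are a tissue-resident type in many organs.

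H2-Aa, H2-Ab1, H2-Eb1 and the H2-DM genes lie on chromosome 17 and Ciita on chromosome 16. H2-DMb2 (chr17:34143307-34151555) and H2-DMb1 (chr17:34153072-34160230) are neighbours on the plus strand, and H2-DMa (chr17:34119541-34139101, plus strand) lies just before them. H2-Ab1 (chr17:34257689-34269419, plus strand), H2-Aa (chr17:34282744-34287823, minus strand) and H2-Eb1 (chr17:34305867-34316674, plus strand) follow, all in GRCm38. Ciita (chr16:10480059-10528418, plus strand) overlaps Dexi on the other strand. RefSeq promoter entries (GRCm38.p6, 250 bases before each start) were used for 5 of the 8 genes, and Cd74 was left out of this search. For the H2-DM genes the starts of these entries lie inside the GENCODE genes. Since Ciita is recruited to these promoters, windows of 65 bases around the Y box are shown for 4 of them, 5′ to 3′ on the gene's strand. Capitals mark the Y box core ATTGG and, where a match was found, a stricter run of X box letters and, in H2-DMb1 alone, an overlapping match to the looser X box consensus.
H2-DMb1: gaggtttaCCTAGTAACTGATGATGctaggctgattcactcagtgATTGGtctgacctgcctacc
H2-DMb2: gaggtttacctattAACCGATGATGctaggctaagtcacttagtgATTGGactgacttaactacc
H2-Eb1: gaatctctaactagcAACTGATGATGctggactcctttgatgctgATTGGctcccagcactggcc
H2-Aa: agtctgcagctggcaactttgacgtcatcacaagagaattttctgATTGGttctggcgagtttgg

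The windows are chr17:34153085-34153149 (plus strand) for H2-DMb1, chr17:34145114-34145178 (plus) for H2-DMb2, chr17:34305763-34305827 (plus) for H2-Eb1 and chr17:34287852-34287916 (minus) for H2-Aa. On either strand the Y box core was present in 33.8% of the 32851 promoters in the table and the looser X box consensus in 14.2%. The stricter X box letters were read off the promoters of the members themselves, so their presence there is no finding. They occurred in 16 promoters (0.0487%), among them H2-DMb1, H2-DMb2 and H2-Eb1, where 19 to 20 bases separated them from the Y box core. The core and the stricter letters together were held by 10 promoters (0.0304%). H2-DMa held the Y box core further upstream, 198 bases before its start.

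Unique molecular identifiers (UMIs) tag single captured transcripts. There were 110956482 of them in 6706 knockout barcodes, and 96869041 in 6315 wild type barcodes. After filters, 5990 knockout and 5907 wild type barcodes were kept as macrophages, with medians of 16026.5 and 14393 UMIs. The median mitochondrial share was 1.47% in knockout and 0.684% in wild type macrophages. Ankrd22 had 0 UMIs in both libraries and so does not check the genotype. The libraries shared 15 cell barcodes. Levels are given as UMIs per 1000000 UMIs summed over barcodes (CPM), or as UMIs per 10000 UMIs of a barcode. The median gene was 0.21 higher in the knockout library on the log2 scale (5115 genes at 20 CPM or more), and 2 other scalings of the libraries moved the log2 ratios of abundant genes by -0.28 and those of genes near 1 CPM by less. A 2-fold difference was passed upwards by 87 and downwards by 104 of those genes in knockout macrophages, and by 41 and 169 under each of the other scalings.

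Over all macrophage barcodes the class II chains, Cd74 and H2-DMa were lower in the knockout library, while Ciita was higher. The chain sum, H2-Aa, H2-Ab1 and H2-Eb1 together, was 227 CPM in knockout and 297 CPM in wild type macrophages, a log2 ratio of -0.38 (-0.41 to -0.36). All log2 ratios here are of CPM + 1. H2-Aa, the alpha chain of the I-A molecule, stood at 83.9 CPM in knockout and 112 CPM in wild type macrophages (-0.41). H2-Ab1, its beta chain, stood at 85.3 CPM in knockout and 122 CPM in wild type macrophages (-0.51). H2-Eb1, the beta chain of I-E, was the chain closest between the libraries, with 58.1 CPM in knockout and 63.5 CPM in wild type macrophages (-0.12, -0.18 to -0.07). The alpha chain partner of I-E is a pseudogene in some laboratory strains, and H2-Ea-ps had 0 UMIs in both libraries.

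Cd74, the invariant chain, was the most abundant of the 8 genes, at 287 CPM in knockout and 356 CPM in wild type macrophages (-0.31, -0.33 to -0.29). H2-DMa, the alpha chain of the peptide exchanger, stood at 88.1 CPM in knockout and 120 CPM in wild type macrophages (-0.44). H2-DMb1, its beta chain, was at 41.0 CPM in knockout and 37.9 CPM in wild type macrophages, a log2 ratio of 0.11 that turned to -0.16 under both other scalings. H2-DMb2, a second beta chain gene, was scarce at 1.30 CPM in knockout and 1.05 CPM in wild type macrophages. Ciita was seen as 223 UMIs in the knockout library (2.18 CPM, 1.90 to 2.49) and as 76 UMIs in the wild type library (0.854 CPM, 0.673 to 1.07). Its log2 ratio was 0.78 (0.57 to 0.97), and 0.62 under each of the other scalings. The added 1 CPM shrinks a ratio at levels this low, and the plain CPM were 2.56-fold apart. None of the 6 members that reached 20 CPM was 2-fold different, where 1.7% of all genes were higher and 2.03% lower by that much.

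Most chain UMIs came from a minority of barcodes. Barcodes were put in ranges by the chain sum per 10000 UMIs: off under 1, intermediate from 1 to under 10, and high from 10 up. The ranges are sections of a continuous scale and not cell types. In the knockout library 4630 barcodes were off (77.3%), 1147 intermediate (19.1%) and 213 high (3.56%, 3.10 to 4.06). In the wild type library 3703 were off (62.7%), 1827 intermediate (30.9%) and 377 high (6.38%, 5.77 to 7.04). No UMI of the 3 chains was seen in 3432 knockout barcodes (57.3%) and in 2705 wild type barcodes (45.8%). Within 1.5-fold of the lower limit lay 856 knockout and 891 wild type barcodes, and within 1.5-fold of the upper limit 142 and 330. The high range held 68.1% of all chain UMIs in the knockout library and 60.4% in the wild type library.

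There was no gap between off and high barcodes in either library, and every bin of the scale held barcodes. From 1 to under 100 per 10000 the wild type library had the larger share of its barcodes in every bin. A chain sum of 50 or more was reached by 54 knockout barcodes (25.4% of the high range) and by 44 wild type barcodes (11.7% of it). From 50 to under 100 there were 27 knockout and 38 wild type barcodes, and at 100 or more, where the order was the other way, 27 knockout and 6 wild type barcodes. The median chain sum of the high range was 23.4 per 10000 in knockout and 18.5 per 10000 in wild type barcodes, and the highest single barcode reached 375 and 275 per 10000. The knockout library therefore had fewer high barcodes, with more of them far up the scale. In the off range the summed chains stood at 18.3 CPM in knockout and 21.3 CPM in wild type macrophages. In 8 knockout barcodes with T and NK cell markers 1 chain UMI was seen among 30318 UMIs, or 33.0 CPM with an interval of 0.835 to 184 CPM. So small a control cannot tell the off level from background.

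**Figure D1:**
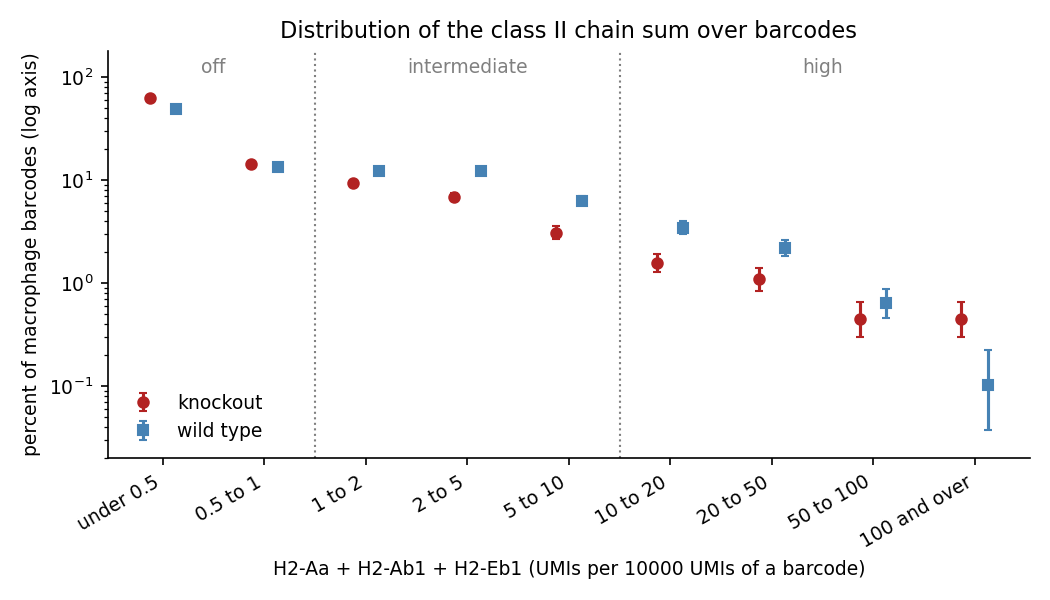
Percent of macrophage barcodes (log axis) in 9 bins of the class II chain sum (UMIs of H2-Aa, H2-Ab1 and H2-Eb1 per 10000, bins of unequal width) in the knockout (circles) and wild type (squares) library. Bars are exact 95% binomial intervals, and dotted lines are the limits of the ranges at 1 and 10. The knockout points lie above the wild type points in the 2 bins below 1 and in the top bin, where 27 knockout and 6 wild type barcodes lie, and below them from 1 to 100.

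Cd74 followed the chains most closely, although it is no part of the sum. It stood at 4886 CPM in high and 38.1 CPM in off knockout barcodes, and at 3145 CPM in high and 51.7 CPM in off wild type barcodes. The intermediate range had 359 CPM in each library. H2-DMb1 was higher range by range in each library, with 32.7, 48.4 and 168 CPM in off, intermediate and high knockout barcodes, and 30.9, 40.0 and 91.9 CPM in wild type ones. H2-DMa differed less between the ranges. It had 76.3, 101 and 255 CPM over the 3 ranges in the knockout library and 103, 128 and 232 CPM in the wild type library. H2-DMa and H2-DMb1 were thus still counted where the chains were off. The 8 knockout barcodes with T and NK cell markers held 0 UMIs of either, which allows up to 122 CPM. So small a control cannot tell these off levels from background either. Off barcodes held 5934 of 9008 H2-DMa UMIs in knockout and 5635 of 10665 in wild type macrophages. The part of background in them was not tested.

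Ciita differed between the ranges more than the DM genes did. In the knockout library it stood at 0.489 CPM in off, 1.90 CPM in intermediate and 37.5 CPM in high barcodes. In the wild type library the levels were 0.239, 1.05 and 5.58 CPM. Of the members at 20 CPM or more, 7 of 7 stood at least 2-fold above their off level in high knockout barcodes and 6 of 6 in high wild type barcodes. Of all genes, 3.29% did so in knockout and 1.91% in wild type barcodes. The 3 chains define the ranges, and Ciita reached 20 CPM in the high range alone, so nothing is read from these counts. H2-DMb2 was under 3 CPM in every range, with 2.57 CPM (10 UMIs) in high knockout and 1.86 CPM (11 UMIs) in high wild type barcodes.

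**Figure D2:**
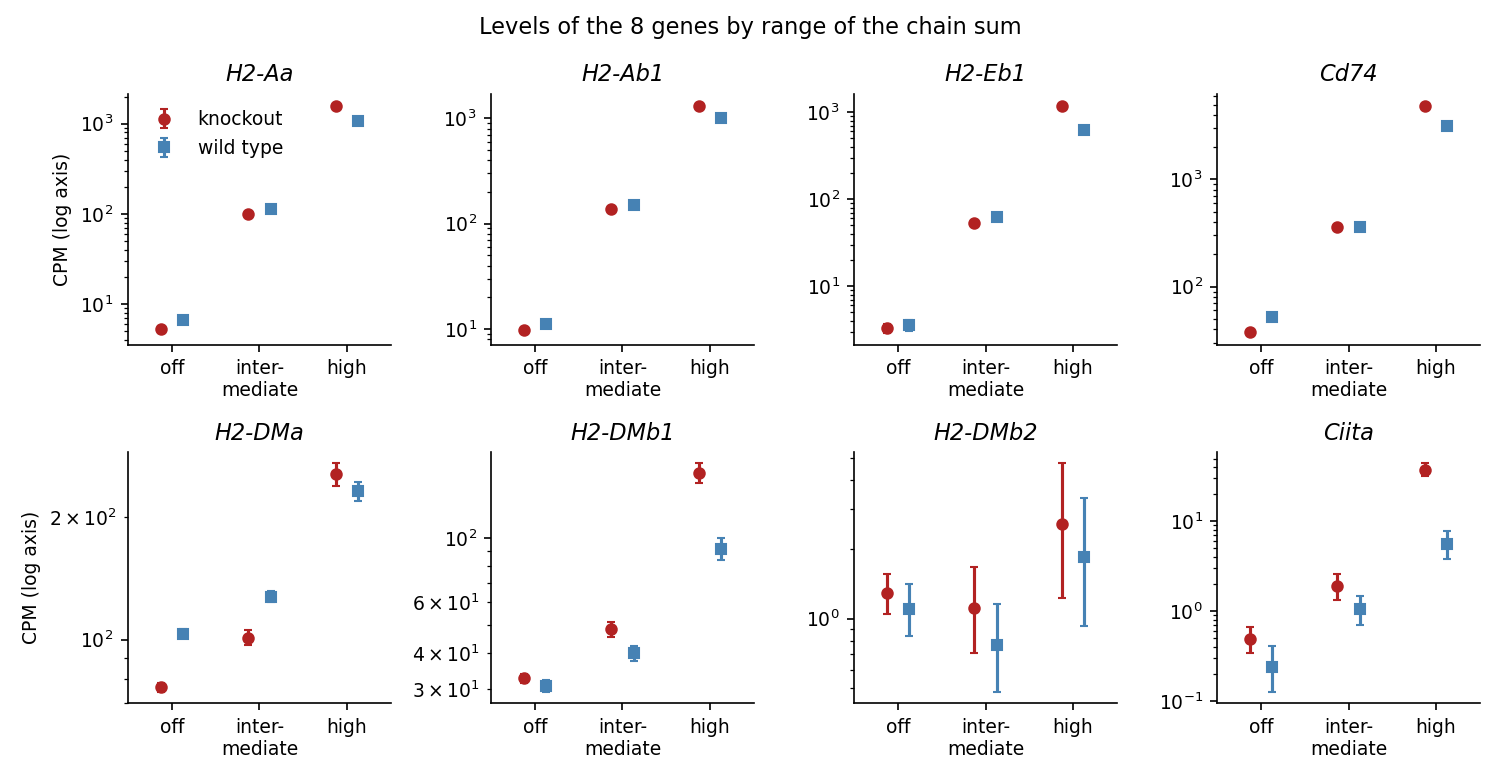
Levels (CPM, log axes that differ between panels) of the 8 genes in off, intermediate and high barcodes of the knockout (circles) and wild type (squares) library. Bars are exact 95% Poisson intervals. Ciita in the high range, at 37.5 CPM in knockout and 5.58 CPM in wild type barcodes, shows the widest separation between the libraries.

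Within the high range the chains and Cd74 were higher in the knockout library. This range is cut on the chain sum and has no upper limit. At 100 or more per 10000, 27 knockout barcodes gave 6130 of the 15823 chain UMIs of the range. In the wild type library 6 barcodes gave 1432 of 15992. The ratios below therefore describe the whole open-ended range and not barcodes at matched chain sums. H2-Eb1 stood at 1178 CPM in high knockout and 624 CPM in high wild type barcodes, a log2 ratio of 0.92 (0.85 to 0.98). H2-Aa stood at 1576 CPM in high knockout and 1075 CPM in high wild type barcodes (0.55). H2-Ab1 was at 1309 CPM in high knockout and 1003 CPM in high wild type barcodes (0.38), and at 0.09 and 0.07 under the other scalings. Cd74 had a log2 ratio of 0.64 (0.61 to 0.66) and H2-DMb1 one of 0.86 (0.70 to 1.03). The chains, Cd74 and H2-DMb1 stayed higher in knockout high barcodes under both other scalings. These scalings were applied to the summed counts alone, and the limits of the range were left unscaled. H2-DMa, at 255 CPM in knockout and 232 CPM in wild type barcodes (0.14, 0.02 to 0.25), turned to -0.16 and -0.17 under them.

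Ciita differed most. The high range held 146 Ciita UMIs in the knockout library and 33 in the wild type one, which gives a log2 ratio of 2.55 (2.06 to 3.05). Of the 7 members at 20 CPM or more, Ciita alone was past 2-fold in this comparison, where 3.28% of 5544 genes were higher and 2.24% lower by that much. It reached 20 CPM in the knockout library alone, so nothing is read from this count. A Ciita UMI was seen in 71 of 213 knockout high barcodes (33.3%) and in 27 of 377 wild type ones (7.16%). No single barcode carried the level: the most in 1 barcode were 8 UMIs in knockout and 3 UMIs in wild type barcodes, and the level without that barcode was 35.7 and 5.08 CPM. With each barcode thinned to 5000 UMIs, 34 of 201 knockout high barcodes (16.9%) and 7 of 348 wild type ones (2.01%) had a Ciita UMI, with 12 and 29 shallower barcodes left out. Off barcodes had one in 0.265% of knockout and 0.144% of wild type cases at the same depth. Barcodes with T and NK cell markers had none, 0 of 8 in the knockout library (median 3484 UMIs), which allows a share of up to 37.5%. The overlapping gene Dexi did not follow, with 8.22 CPM in high and 8.12 CPM in off knockout barcodes and 8.95 CPM in high and 7.69 CPM in off wild type barcodes.

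**Figure D3:**
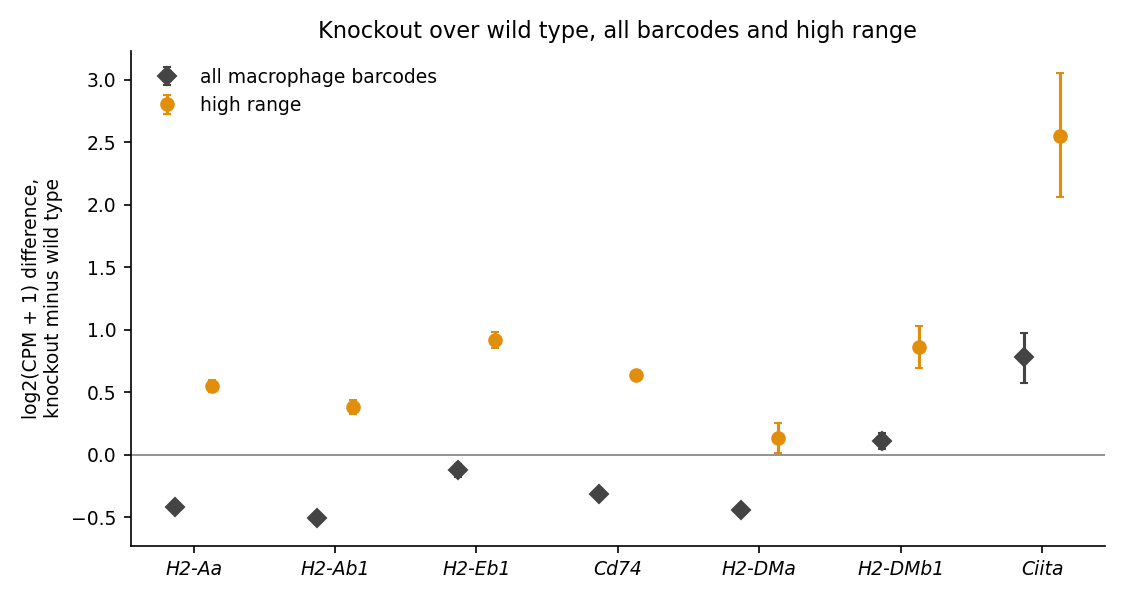
Log2 ratio of CPM + 1, knockout over wild type, of 7 genes over all macrophage barcodes (diamonds) and in the high range (circles), with exact 95% intervals for counting error. H2-DMb2, at under 3 CPM, is left out. H2-Aa, H2-Ab1, H2-Eb1, Cd74 and H2-DMa lie below 0 over all barcodes and above 0 in the high range, where H2-DMa turns below 0 under 2 other scalings and Ciita reaches 2.55.

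Since the knockout high range reached further up, Ciita was also compared at matched chain levels. From 10 to under 20 per 10000, Ciita stood at 9.38 CPM (5.56 to 14.8) in 94 knockout barcodes and at 2.48 CPM (1.07 to 4.89) in 204 wild type barcodes. The log2 ratio in this bin was 1.58 (0.54 to 2.55). From 20 to under 50 it stood at 33.0 CPM (23.5 to 45.1) in 65 knockout and 8.89 CPM (5.27 to 14.0) in 129 wild type barcodes. From 50 to under 100 it stood at 61.7 CPM (40.7 to 89.8) in 27 knockout and 6.88 CPM (1.88 to 17.6) in 38 wild type barcodes. In these 3 bins the intervals of the libraries did not overlap. From 100 up, the 27 knockout barcodes had 62 Ciita UMIs (175 CPM, 134 to 224) and the 6 wild type barcodes 3 (33.0 CPM, 6.81 to 96.6). Below 10 the intervals overlapped in all bins but the one from 0.5 to 1, which does not show equal levels. By whole range, the log2 ratio of Ciita was 0.27 (0.03 to 0.46) in off and 0.50 (0.08 to 0.90) in intermediate barcodes.

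Ccr2, the chemokine receptor of monocytes, climbed with the chain sum in both libraries, further in the knockout library. It stood at 392 CPM in high and 0.978 CPM in off knockout barcodes, and at 110 CPM in high and 0.643 CPM in off wild type barcodes. In the top bin it reached 1793 CPM in knockout and 584 CPM in wild type barcodes. Folr2 was lower in the knockout library in every range. It had 2.71, 10.7 and 55.2 CPM in off, intermediate and high knockout barcodes, and 12.6, 37.2 and 101 CPM in wild type ones. Gata6, the factor of large macrophages, ran the other way. It had 175, 154 and 81.4 CPM in off, intermediate and high knockout barcodes, and 152, 144 and 93.3 CPM in wild type ones. In the top bin 3 Gata6 UMIs were left in the knockout library (8.44 CPM, 1.74 to 24.7), against 8 in the 6 wild type barcodes (88.1 CPM, 38.0 to 174). Whether Gata6 was higher or lower in the knockout library over all, off or intermediate barcodes depended on the scaling.

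**Figure D4:**
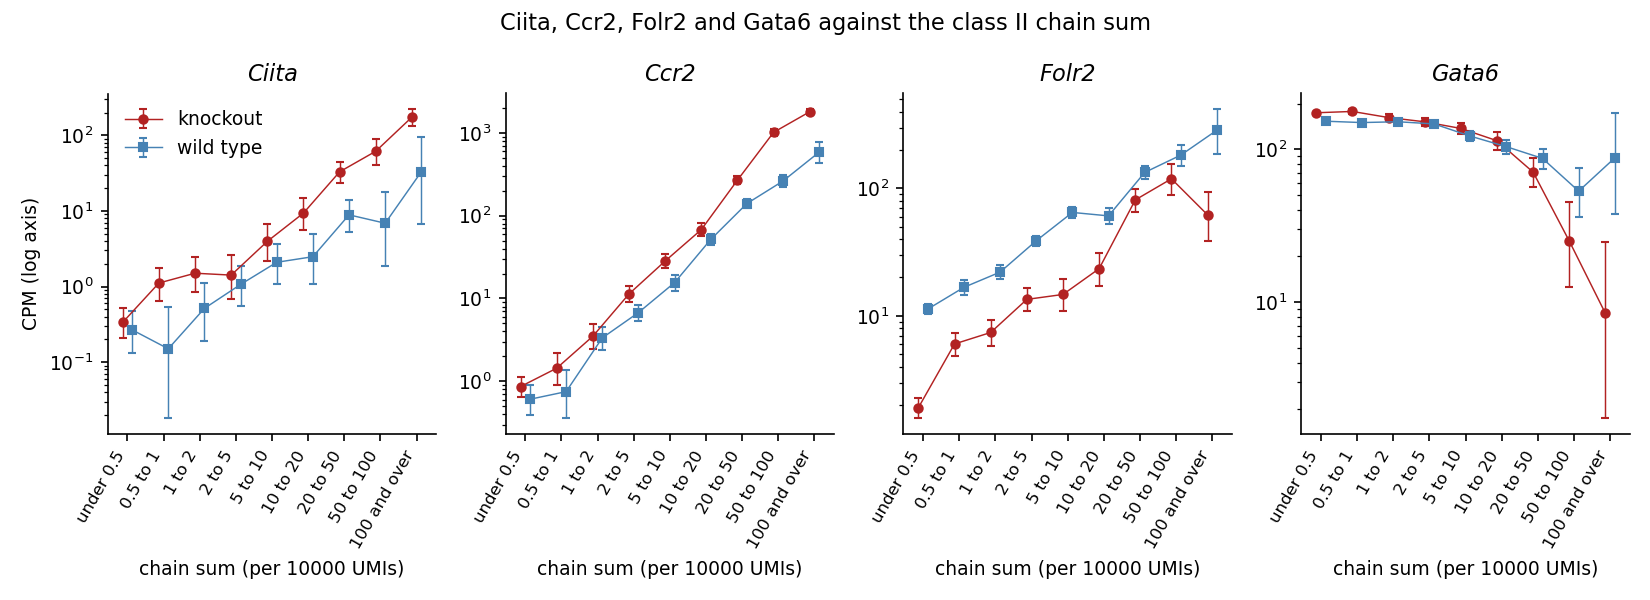
Levels (CPM, log axes that differ between panels) of Ciita, Ccr2, Folr2 and Gata6 in 9 bins of the class II chain sum in the knockout (circles) and wild type (squares) library, with exact 95% Poisson intervals. Ciita and Ccr2 climb further in the knockout library, to 175 and 1793 CPM in the top bin, Folr2 lies lower there in every bin, and Gata6 is lower from 5 per 10000 up than below 1 in both libraries. The wild type top bin rests on 6 barcodes.

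Shares of barcodes with a UMI, at 5000 UMIs per barcode, gave the same order. In the high range Ccr2 had a UMI in 38.8% (32.0 to 45.9) of knockout barcodes and in 23.0% (18.7 to 27.8) of wild type ones. Folr2 had a UMI in 16.9% of knockout high barcodes and in 25.9% of wild type ones. Gata6 was seen in 28.9% of high and 54.7% of off knockout barcodes, and in 35.6% of high and 49.0% of off wild type barcodes. High barcodes without Gata6 UMIs were therefore common, but Gata6 was not absent from the high range. Without thinning, Gata6 had a UMI in 56.8% of knockout high barcodes and in 59.4% of wild type ones. Barcodes of a cluster with B cell markers, which should lack Ccr2, Folr2 and Gata6, had no UMI of any of them, 0 of 31 in the knockout library (median 3772 UMIs) and 0 of 37 in the wild type library (median 5057 UMIs).

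Read the other way round, like shares of the barcodes with a Ccr2 UMI were high in both libraries. Of thinned barcodes with a Ccr2 UMI, 78 of 125 knockout ones (62.4%, 53.3 to 70.9) and 80 of 128 wild type ones (62.5%, 53.5 to 70.9) were in the high range. For Folr2 it was 34 of 119 knockout (28.6%) and 90 of 362 wild type barcodes (24.9%). Of barcodes with a Ciita UMI, 34 of 57 knockout ones (59.6%, 45.8 to 72.4) and 7 of 21 wild type ones (33.3%, 14.6 to 57.0) were high, and these intervals overlap.

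The high barcodes were split by whether a Ccr2 or Folr2 UMI was seen at 5000 UMIs. High barcodes with Ccr2 but no Folr2 numbered 60 of 201 in the knockout library (29.9%), against 47 of 348 in the wild type one (13.5%). These had the highest median chain sum in each library, 56.9 per 10000 in knockout and 36.8 per 10000 in wild type barcodes. Ciita stood at 76.0 CPM (60.8 to 93.8) in these knockout barcodes and at 3.90 CPM (0.804 to 11.4) in the wild type ones, which held 3 UMIs. Folr2 without Ccr2 was seen in 16 knockout and 57 wild type high barcodes, with Ciita at 32.0 CPM (15.3 to 58.8) and 4.18 CPM (1.14 to 10.7). Both were seen in 18 knockout and 33 wild type barcodes, with Ciita at 71.9 CPM (44.5 to 110) and 14.7 CPM (6.74 to 28.0). Most high barcodes showed neither, 107 of 201 (53.2%) in knockout and 211 of 348 (60.6%) in wild type barcodes. There Ciita was nearest between the libraries, with 11.8 CPM (7.62 to 17.4) in knockout and 4.87 CPM (2.84 to 7.80) in wild type barcodes. These intervals overlap only from 7.62 to 7.80 CPM. Ciita was lower in wild type barcodes in both sets with Ccr2, but their median chain sums differed between the libraries too. With Folr2 as well, these were 53.1 per 10000 in knockout and 24.4 per 10000 in wild type barcodes. The part of cell make-up in the Ciita levels was not tested.

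Clusters were built with the 8 genes left out of the variable genes. The libraries separated almost fully: 14 of 17 clusters held 95% or more of barcodes from 1 library, so a cluster may stand for its library as much as for a cell type. Of the knockout high barcodes, 62.0% lay in a cluster led by Ccr2, Retnla and Fcrls, in which 132 of 416 knockout barcodes (31.7%) were high and Ciita stood at 18.8 CPM. Of the wild type high barcodes, 51.2% lay in a cluster led by Lyve1, Folr2 and Mrc1, in which 193 of 922 (20.9%) were high and Ciita stood at 2.59 CPM. The first of these clusters held 3 wild type barcodes and the second 1 knockout barcode. In the 3 clusters led by replication and mitosis genes, 29 of 529 knockout barcodes (5.48%) and 54 of 337 wild type ones (16.0%) were high. The remaining large-macrophage-like clusters had 52 high barcodes in the knockout library (1.03%) and 127 in the wild type library (2.74%).

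Marker lists of macrophage types and of other cells also differed between high and off barcodes, and their part in the result was not tested. The 14 large macrophage markers summed to 8679 CPM in high and 18498 CPM in off knockout barcodes, and 10923 CPM in high and 18700 CPM in off wild type barcodes. The 12 markers of Ccr2 macrophages summed to 689 CPM in high and 95.1 CPM in off knockout barcodes, and 299 CPM in high and 105 CPM in off wild type barcodes. Those of Folr2 macrophages, 10 genes, summed to 7447 CPM in high and 438 CPM in off knockout barcodes, and 8141 CPM in high and 1855 CPM in off wild type barcodes. The sums of the lists with Ccr2 and Folr2 were thus higher, and that of the large macrophage list lower, in high barcodes of each library. Single genes gave much of each sum. In the Folr2 list Retnla alone stood at 6748 CPM in high knockout and 6678 CPM in high wild type barcodes. Ccr2 gave 392 and 110 CPM of its list there, and Prg4 4624 and 4432 CPM of the large macrophage list. For 12 proliferation genes the sums were 446 CPM in high and 240 CPM in off knockout barcodes, and 686 CPM in high and 234 CPM in off wild type barcodes. The 6 B cell markers summed to 6.68 CPM in high and 3.37 CPM in off knockout barcodes and to 3.89 CPM in high and 2.33 CPM in off wild type barcodes. Of the B cell markers, Ms4a1 and Pax5 were at 0 in the high range of both libraries, and Ebf1 as well in the wild type one. The 12 dendritic cell markers, led by Cd24a, summed to 264 CPM in high and 379 CPM in off knockout barcodes and to 88.4 CPM in high and 200 CPM in off wild type barcodes. In the high range Xcr1, Clec9a and Itgae were at 0 in both libraries. Flt3, the growth factor receptor of dendritic cells, had 3 UMIs in the knockout (0.770 CPM) and none in the wild type high range, and none in off barcodes of either library. Zbtb46, a dendritic cell transcription factor, stood at 1.80 CPM (7 UMIs) in knockout and 0.338 CPM (2 UMIs) in wild type high barcodes, against 0.502 CPM in off knockout and 0.771 CPM in off wild type barcodes. Dpp4 had 5 UMIs in knockout and 1 in wild type high barcodes, Kmo 2 and 0, and Ccr7 1 and 0. Off knockout barcodes held 1 Dpp4 UMI and off wild type barcodes 0, and neither held a Kmo UMI. Fscn1 was lower in high barcodes, at 1.54 CPM in high and 10.2 CPM in off knockout barcodes and 5.58 CPM in high and 14.8 CPM in off wild type barcodes. Cd209a stood at 5.14 CPM in high and 8.04 CPM in off knockout barcodes, and at 3.55 CPM in high and 8.10 CPM in off wild type barcodes. Batf3 was higher in high barcodes, with 49.0 CPM in 213 high knockout barcodes against an off level of 12 CPM, and 16.7 CPM in high and 8.85 CPM in off wild type barcodes. The median mitochondrial share was 1.27% in knockout and 0.675% in wild type high barcodes, with medians of 16859 and 14868 UMIs.

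The make-up of the chain UMIs shifted along the scale. A 3' tag is counted once per transcript, so these shares are not divided by gene length. In off barcodes H2-Ab1 gave 53.5% (50.8 to 56.1) of chain UMIs in knockout and 52.1% (49.2 to 55.0) in wild type barcodes. In high barcodes it gave 32.2% (31.5 to 33.0) in knockout and 37.1% (36.4 to 37.9) in wild type barcodes. H2-Eb1 gave 29.0% in high and 17.9% in off knockout barcodes, and 23.1% in high and 16.7% in off wild type barcodes. H2-Aa gave 38.8% in high and 28.7% in off knockout barcodes, and 39.8% in high and 31.2% in off wild type barcodes. Both of these shares were larger in high than in off barcodes of each library. The part of background in the off shares was not tested. Part of the gap between the libraries remained at matched chain sums. From 20 to under 50 per 10000, H2-Eb1 gave 27.8% (26.4 to 29.2) of chain UMIs in knockout and 23.0% (22.0 to 24.1) in wild type barcodes. From 50 to under 100 it gave 28.6% (27.0 to 30.2) in knockout and 23.8% (22.5 to 25.2) in wild type barcodes. Below 10 the libraries' H2-Eb1 shares had overlapping intervals in all bins but the one from 1 to 2, where the wild type share was higher.

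**Figure D5:**
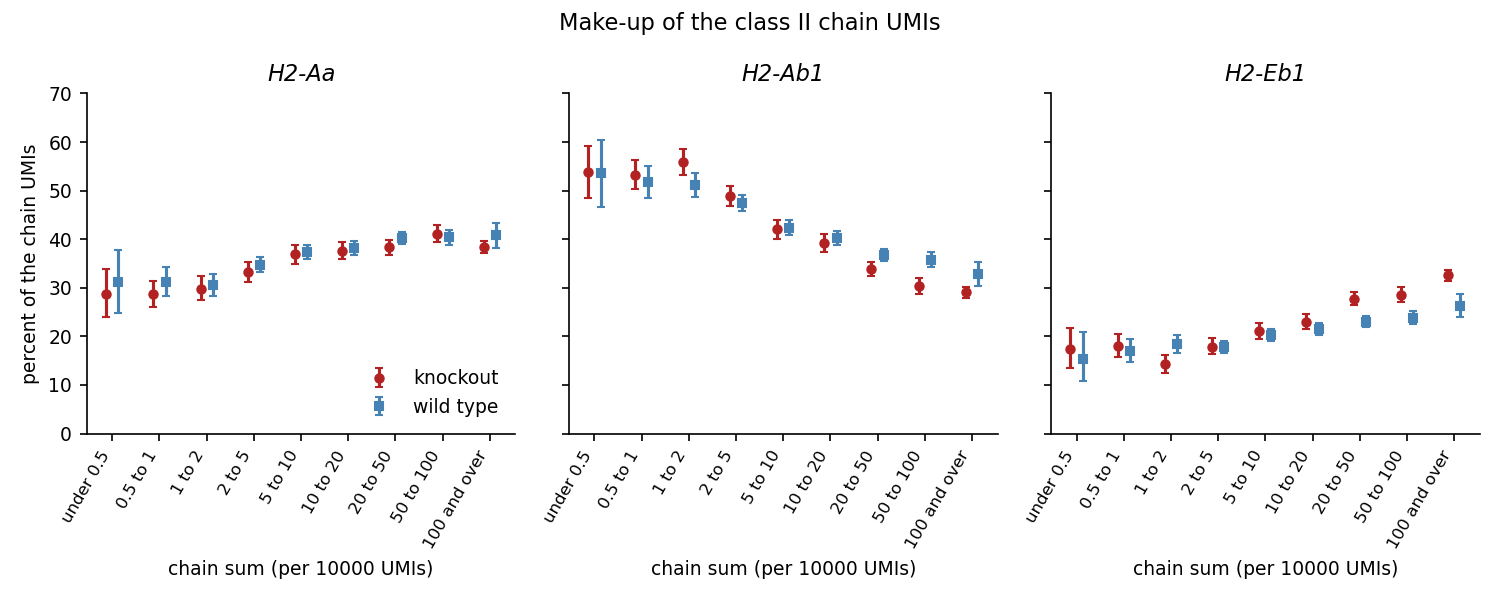
Percent of the chain UMIs from H2-Aa, H2-Ab1 and H2-Eb1 in 9 bins of the chain sum in the knockout (circles) and wild type (squares) library, with exact 95% binomial intervals. H2-Ab1 declines and H2-Eb1 climbs towards high sums in both libraries, and from 20 per 10000 up the knockout H2-Eb1 share lies above the wild type one.

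The partners of the chains shifted as well. Cd74 gave 1.20 UMIs per chain UMI in high and 2.09 in off knockout barcodes, and 1.16 in high and 2.43 in off wild type barcodes. H2-DMa gave 1.52 UMIs per H2-DMb1 UMI in high and 2.33 in off knockout barcodes, and 2.53 in high and 3.35 in off wild type barcodes. The alpha to beta ratio of DM was thus lower in the knockout library in off and in high barcodes, before any scaling, which cancels in such a ratio. H2-DMa overlaps Brd2 and other genes on the opposite strand, and CR974462.3 on its own strand. Brd2 stood at 67.4 CPM in knockout and 65.1 CPM in wild type macrophages, and CR974462.3 had 3 UMIs and 1 UMI.

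The H2-DM beta genes had a different order of levels in macrophages and in B-like barcodes. H2-DMb1 exceeded H2-DMb2 in macrophages, 41.0 against 1.30 CPM in knockout and 37.9 against 1.05 CPM in wild type barcodes. In the cluster with B cell markers the order was reversed. There H2-DMb2 stood at 343 CPM (255 to 451) in 31 knockout and 379 CPM (302 to 469) in 37 wild type barcodes, and H2-DMb1 at 60.5 CPM (27.7 to 115) and 49.6 CPM (24.8 to 88.7). The reversal was found in each library on its own. The longest transcripts of these near copies align with 94.6% identity over 1219 bases, and their last 300 bases, where 3' tags fall, with 75.8% over 273 bases, so some tags may have been assigned to the wrong copy. Ciita stood at 47.1 CPM (18.9 to 97.0) in knockout and 54.1 CPM (27.9 to 94.5) in wild type B-like barcodes, and the chain sum at 8784 and 8024 CPM. For Ciita these B-like levels overlapped between the libraries, unlike those of high macrophage barcodes.

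Correlations over barcodes were computed within each library. The points share a library and its free RNA, and depth differs between barcodes. With log values over 5990 knockout and 5907 wild type barcodes, Pearson's r with the chain sum was 0.83 in knockout and 0.82 in wild type barcodes for Cd74. It was 0.54 and 0.39 for Ccr2, 0.42 and 0.16 for Ciita, 0.31 and 0.26 for Folr2, and -0.17 and -0.10 for Gata6. Within the high range (213 knockout and 377 wild type barcodes) r was 0.56 and 0.20 for Ciita, 0.72 and 0.39 for Ccr2, and -0.48 and -0.12 for Gata6. At 5000 UMIs per barcode (5856 knockout and 5570 wild type barcodes) r over all barcodes was 0.72 and 0.72 for Cd74, 0.49 and 0.33 for Ccr2, 0.30 and 0.06 for Ciita, 0.22 and 0.23 for Folr2, and -0.09 and -0.06 for Gata6. Within the thinned high range it was 0.44 and 0.12 for Ciita, 0.67 and 0.35 for Ccr2, and -0.25 and -0.12 for Gata6. Except for Cd74, whose r stayed above 0.7, and Ccr2, these thinned values are weak in at least 1 library.

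Among 9245 genes seen in at least 2% of barcodes of each library, the 10 most like the chain sum by the smaller of the libraries' r were Ccr2, Retnla, Mrc1, Clec4a2, F13a1, Folr2, Plekho1, Clec4a1, Anxa5 and Ccl6. Retnla, which encodes a small secreted protein of alternatively activated macrophages, had r of 0.47 in knockout and 0.37 in wild type barcodes. It stood at 6748 CPM in high and 90.9 CPM in off knockout barcodes and at 6678 CPM in high and 602 CPM in off wild type barcodes. Mrc1, the mannose receptor, had r of 0.46 and 0.27. The order is a ranking, and an r this low in 1 library is weak. The 5 genes running most against the chain sum were Ltbp1, Cd9, Prg4, Ptgis and Fabp4. Ltbp1, a binder of latent TGF-beta, had r of -0.35 in knockout and -0.32 in wild type barcodes, with 117 CPM in high and 503 CPM in off knockout barcodes and 232 CPM in high and 579 CPM in off wild type barcodes. Only 13 genes had r above 0.2 in both libraries, and 11 had r below -0.2.

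The other genes of the pathway were compared between high and off barcodes, where 3.29% of all genes were 2-fold higher and 1.82% lower in knockout and 1.91% higher and 0.811% lower in wild type barcodes. At these shares counts of 0 in lists of this size say nothing particular about a list. Of the promoter-binding complex, 0 of 9 genes at 20 CPM or more in knockout and 0 of 7 in wild type barcodes passed 2-fold, with median log2 ratios of 0.44 and 0.24 where the median gene had 0.14 and 0.11. Creb1 was at 43.4 CPM in high and 29.6 CPM in off knockout barcodes, and Ep300, an acetyltransferase, at 77.0 and 56.7 CPM. Of the genes that serve peptide supply and turnover, 0 of 14 passed in knockout and 0 of 13 in wild type barcodes. March1, a ligase that sends class II molecules to degradation, stood at 73.7 CPM in high and 40.3 CPM in off knockout barcodes. Ctsd, an endosomal protease, differed in sign between the libraries, at 1564 CPM in high and 1024 CPM in off knockout barcodes but 902 CPM in high and 1126 CPM in off wild type barcodes.

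Of the regulators of Ciita, 0 of 11 in knockout and 0 of 10 in wild type barcodes passed 2-fold between high and off barcodes. Of all genes, 3.29% were higher and 1.82% lower by that much in knockout, and 1.91% and 0.811% in wild type barcodes. At these shares nothing is read from the counts here. Ifngr1, a chain of the interferon gamma receptor, stood at 197 CPM in high and 103 CPM in off knockout barcodes and at 119 CPM in high and 86.4 CPM in off wild type barcodes. Irf1, which acts on a Ciita promoter downstream of interferon gamma, stood at 33.6 CPM in high and 23.8 CPM in off knockout barcodes and at 54.2 CPM in high and 34.1 CPM in off wild type barcodes. Of co-stimulatory and adhesion genes, 1 of 4 in knockout and 1 of 5 in wild type barcodes passed 2-fold, Cd9 on the lower side in each. Cd9, a tetraspanin, had 570 CPM in high and 1399 CPM in off knockout barcodes and 415 CPM in high and 922 CPM in off wild type barcodes. Cd86, a ligand of CD28, stood at 47.3 CPM in high and 77.9 CPM in off knockout barcodes and at 59.6 CPM in high and 72.5 CPM in off wild type barcodes.

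Between the libraries within the high range, 1 of 14 genes of peptide supply and 1 of 11 regulators of Ciita passed 2-fold, where 3.28% of all genes were higher and 2.24% lower by that much. March1 was higher, at 73.7 CPM in knockout and 30.9 CPM in wild type high barcodes (log2 ratio 1.23), but fell short of 2-fold under the other scalings (0.94 and 0.92). Irf8, a transcription factor of mononuclear phagocytes, was lower, at 32.6 CPM in knockout and 67.4 CPM in wild type high barcodes (-1.03, -1.32 to -0.74). Irf1 was at 33.6 CPM in knockout and 54.2 CPM in wild type high barcodes (-0.67), opposite in sign to Ciita. Ifngr1 was at 197 CPM in knockout and 119 CPM in wild type high barcodes (0.72). Of the promoter-binding complex 0 of 9 genes passed, with a median log2 ratio of 0.27 where the median gene had 0.24, and of co-stimulatory and adhesion genes 0 of 4. Over all macrophages 0 of 13, 0 of 7, 0 of 10 and 0 of 5 genes of these lists passed, in the order peptide supply, promoter-binding complex, regulators and co-stimulation, where 1.7% of all genes were higher and 2.03% lower. Irf8 and Irf1 were lower over all macrophages too, with log2 ratios of -0.84 and -0.60. Under both other scalings Irf8 passed 2-fold there (-1.11). Of the further genes of the class II locus, H2-Ob, a chain of the DM inhibitor DO, stood at 2.51 CPM in knockout and 4.21 CPM in wild type macrophages. H2-Oa had 4 UMIs in knockout and 9 in wild type barcodes.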

How the data were processed

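The deposited values are raw counts of UMIs for each gene in each barcode. The file headers name Cell Ranger 6.1.2. Per the submitters' processing notes, bcl2fastq and Seurat 4.1.0 were used and the assembly was mm9. Positions come from GENCODE M21 (GRCm38), which holds each of the 55450 identifiers. The strand setting is not given in the sources used here.

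A barcode was kept with at least 500 genes and at most 10% mitochondrial UMIs. Scrublet's own threshold called 1 barcode in each library (0.0157% and 0.0160%), so the highest scores were removed at 0.8% per 1000 barcodes, 324 from the knockout and 313 from the wild type table. Barcodes with 3 or more UMIs of 6 B cell markers were set aside, 46 knockout and 39 wild type ones. Depth ran to 5990 knockout and 5907 wild type macrophage barcodes with 102200457 and 89022363 UMIs.

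Ratios are log2 of CPM with 1 added, with exact conditional binomial intervals. Levels have exact Poisson and shares exact Clopper-Pearson 95% intervals, which cover counting error only. The 2-fold limit was applied, lists included, to genes reaching 20 CPM in at least 1 of both sets. A count of 0 allows up to 3 counts. Named were all 8 members, the 10 genes most like and the 5 least like the chain sum, up to 4 genes of each list by absolute log2 ratio among those with a mean of 20 CPM, and markers. Some genes that this rule takes in are not reported here. Dexi, Brd2, CR974462.3 and H2-Ob were named after their values were seen. Clusters used 2000 variable genes, 30 components, 15 neighbours and Leiden resolution 1. The members and lists were chosen with earlier results of these data known. Scripts were tested on simulated data. Alternatives were other scalings (edgeR 4.0.16 TMM and DESeq2 1.42.0 size factors), filters, limits, thinning and a pseudocount. The work used scanpy 1.11.5 and leidenalg 0.10.2, besides Biopython 1.88, pandas 2.3.3, scipy 1.17.1, numpy 2.4.6 and matplotlib 3.10.9 under Python 3.11.15, with R 4.3.3.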

Additional observations from a re-analysis of the deposited data

How the results depend on the processing

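The chain sum was lower in the knockout library under every alternative run, with log2 ratios of -0.66 (TMM), -0.67 (median of ratios) and -0.34 with Cd74 added, against -0.38. The high share stayed lower in the knockout library throughout: 7.56% in knockout and 13.3% in wild type with Cd74 added to the sum, 1.99% and 2.93% with limits at 2 and 20 per 10000, and 3.98% and 7.43% after thinning. It was 4.06% in knockout with B-marked barcodes kept. Genes at least 2-fold higher numbered 87, and 41 under TMM and under median of ratios and 351 with no minimum CPM. Those lower numbered 104, and 169, 169 and 160. Restricted to the high range, which is cut on the chain sum itself, the sign turned for H2-Aa (0.55), H2-Ab1 (0.38), H2-Eb1 (0.92), H2-DMa (0.14) and Cd74 (0.64). H2-DMb1 over all macrophages turned to -0.16 under both scalings. The cause of these shifts was not tested. The log2 ratio of Ciita in the high range, tried after seeing the data, lay between 1.58 (only barcodes from 10 to under 20) and 2.73 (0.1 CPM added). Scalings within ranges and the stricter X box letters were also added after seeing the data. No paired analysis was possible because each genotype had 1 library without a replicate number, and for the same reason no replicate could be left out. Depth limits H2-DMb2, H2-Oa and Ciita outside the high range, where barcodes mostly hold 0 or 1 UMI. Ciita shares at 2000 in place of 5000 UMIs were 8.61% in knockout and 1.08% in wild type high barcodes.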

Other observations

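Barcodes outside the macrophages carried class II transcripts too. Those with B cell markers that had been set aside had a median chain sum of 66.4 per 10000 in knockout and 78.7 per 10000 in wild type barcodes, with 32 of 46 and 37 of 39 in the high range. Their Cd74 level was 4881 CPM for knockout and 9526 CPM for wild type barcodes. Barcodes removed as doublets, 319 knockout and 311 wild type ones apart from B-marked ones, had 4 (1.25%) and 14 (4.5%) in the high range, with chain sums of 122 and 228 CPM. Barcodes failing the filters, 346 knockout and 56 wild type ones, had a median of 747 and 673 UMIs, and 24 (6.94%) and 9 (16.1%) of them passed the high limit, where 1 chain UMI is enough in a barcode of under 1000 UMIs.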
